A study of Drosophila melanogaster with 6 samples.

Results

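The core enzymes of glycolysis were followed at the mRNA level in Drosophila melanogaster Schneider 2 (S2) cells with a disrupted CG1091 gene and in wild-type S2 cells. The members were chosen by name: Hex-A, Pgi, Pfk, Ald, Tpi, Gapdh1, Gapdh2, Pgk, Eno and PyK, which are 10 of the 14210 genes listed for each library. Each name matched 1 gene in the files. Polyadenylated RNA was sequenced from 3 libraries of CG1091 knockout cells, stably depleted of Tailor with CRISPR/Cas9, and from 3 libraries of wild-type S2 cells. CG1091 encodes Tailor, a uridylyltransferase that extends the 3' ends of RNAs with uridines. S2 cells are a cultured line of embryonic origin with properties of hemocytes, the blood cells of the fly. The labels name no treatment for either group and do not say whether the knockout line is a single clone. Only the knockout samples are called biological replicates there, so the p-values speak of the spread among 6 libraries, part of which may be technical. Levels are in FPKM, a fragment rate corrected for transcript length and for library size, which can be compared between genes. CG1091 itself stood at 22.3, 26.1 and 26.1 FPKM in knockout libraries, against 50.7, 51.2 and 47.7 FPKM in wild-type libraries (log2 change of knockout over wild type -0.98, standard error 0.0634, limma adjusted p = 2.5e-07). Its level was lower in the libraries labelled as knockout. The locus overlaps Dpck, with means of 37.8 FPKM in the knockout and 37.7 FPKM in wild type, and the sources used here do not say whether counting used strand, so the part of the remaining value that belongs to CG1091 cannot be told apart. A gene-level value also does not show whether a remaining transcript encodes the enzyme.

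Glycolysis splits glucose into a pair of pyruvate molecules in the cytosol. Its opening part, the investment phase, spends ATP to phosphorylate and cleave the sugar, and its closing part, the payoff phase, regains ATP and reduces NAD+ to NADH. In Drosophila the genes of the pathway are known to be induced together during development and in hypoxia, under the nuclear receptor ERR and the hypoxia factor Sima.

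All 10 enzyme genes were higher in the knockout cells, and the 6 libraries separated by group at every step. Linear fold changes lay between 1.52 for PyK, the last enzyme, and 3.29 for Pgi, the enzyme after hexokinase. Summed over the 10 genes, the level was 3556 ± 128 FPKM in knockout libraries and 1749 ± 19.0 FPKM in wild-type libraries (SD, n = 3 each). In RNA from whole cultures, more cells with a high level and more RNA per cell cannot be told apart. As a share of all FPKM listed, the 10 genes made up 0.560%, 0.564% and 0.561% in the knockout libraries, against 0.258%, 0.261% and 0.260% in the wild-type libraries. The sum was highest in knockout replicate 2, which held the highest knockout value for 8 of the 10 genes, while its share differed little from that of the other 2 knockout libraries. The total FPKM listed was also higher in that library, at 656344 against 621110 and 621402 in the other knockout libraries. In the wild-type libraries that total was 677330, 676301 and 665278, above every knockout library. The mean share of the 10 genes was thus 2.16 times as high in the knockout, and their mean summed FPKM 2.03 times.

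In limma's test on log2(FPKM + 1), fitted over the 7259 genes that averaged 1 FPKM or more, 10 of 10 members passed an adjusted p of 0.05 as higher in the knockout, where 30.1% of all genes tested did. The largest adjusted p among the members was 2.2e-07. The median log2 change of the members was 1.04 and that of all genes tested was -0.01. The median is given as a description, since the members were named with results of these data known. A log2 change of at least 1 together with that threshold was met by 6 of 10 members and by 2.45% of all genes tested. Knockout and wild-type values did not overlap, with the knockout higher, in 10 of 10 members and in 32.9% of all genes tested. The members ranked from 44 to 489 among 7259 genes when ordered from the highest change downwards, and 9 of them stood at rank 204 or above.

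**Figure D1:**
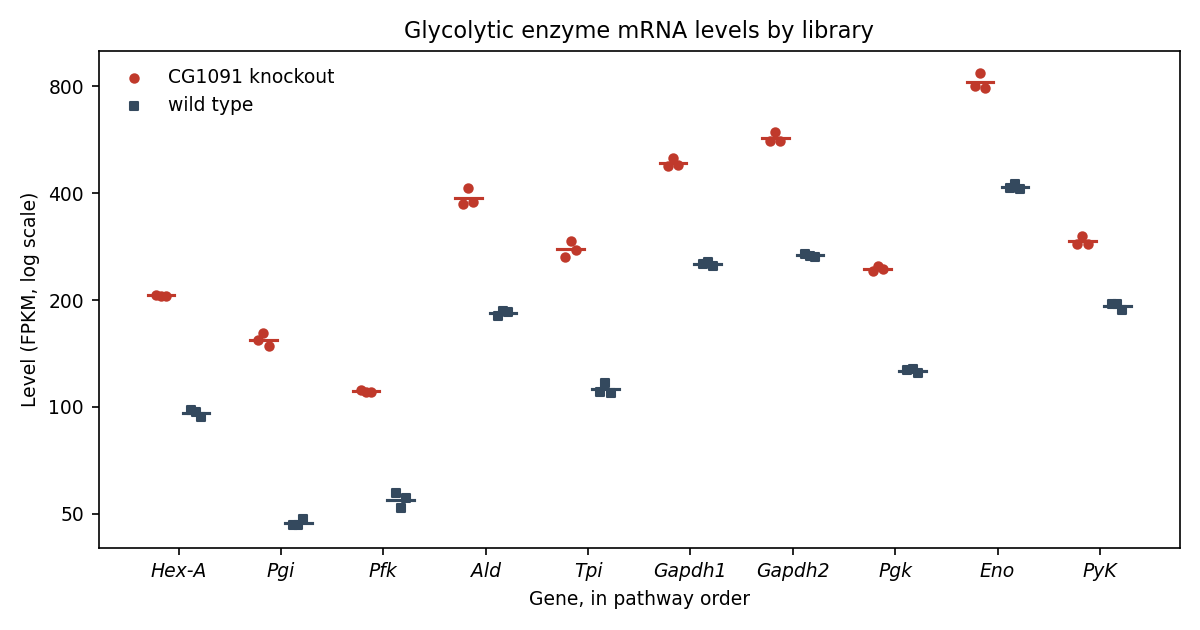
Level of each glycolytic enzyme mRNA (y axis, FPKM on a log scale) in pathway order (x axis), with 1 point per library and a bar at the group mean, for 3 CG1091 knockout libraries (circles) and 3 wild-type libraries (squares). In each of the 10 genes the knockout libraries lie above the wild-type libraries, and Eno has the highest level in both groups.

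The first steps prepare the sugar for cleavage. Hex-A, the hexokinase that phosphorylates glucose (X:9479918-9482434 in the coordinates of the files), stood at 207, 205 and 206 FPKM in knockout libraries, against 98.4, 96.8 and 93.5 FPKM in wild-type libraries. The lowest knockout value was above every wild-type value, and the log2 change was 1.09 (standard error 0.0363, adjusted p = 1.01e-09 in limma). Pgi, which turns glucose 6-phosphate into fructose 6-phosphate (2R:4798407-4801631), stood at 154, 161 and 149 FPKM in knockout libraries, against 46.5, 46.4 and 48.4 FPKM in wild-type libraries. It was the member with the lowest wild-type mean and the largest change, with a log2 change of 1.69 (standard error 0.0432, adjusted p = 1.13e-10 in limma). Pfk, the phosphofructokinase that commits the sugar to glycolysis (2R:5997245-6004962), stood at 112, 111 and 109.9 FPKM in knockout libraries, against 57.1, 51.9 and 55.4 FPKM in wild-type libraries. The log2 change of Pfk was 1.003 (standard error 0.0442, adjusted p = 9.62e-09 in limma). With Pfk lowest in the knockout and Pgi lowest in wild type, the order of the pair was reversed between the groups, and in neither group did their values overlap.

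The next enzymes cleave the sugar and interconvert its products. Ald, the aldolase that splits fructose 1,6-bisphosphate (3R:22079791-22087313), stood at 372, 413 and 379 FPKM in knockout libraries, against 180.3, 186 and 186 FPKM in wild-type libraries. The 3 knockout values were spread more widely than the wild-type values, with SDs of 22.0 and 3.23 FPKM, and the log2 change was 1.07 (standard error 0.0443, adjusted p = 5.78e-09 in limma). Tpi, the isomerase that interconverts the pair of triose phosphates (3R:25958698-25960321), stood at 265, 293 and 276 FPKM in knockout libraries, against 110.4, 117 and 109 FPKM in wild-type libraries. Its log2 change of 1.30 (standard error 0.0455, adjusted p = 1.49e-09 in limma) was the second in size after that of Pgi.

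The payoff phase opens with glyceraldehyde-3-phosphate dehydrogenase, which makes NADH and is encoded by a pair of genes. Gapdh1 (2R:3679403-3680885) stood at 477, 504 and 481 FPKM in knockout libraries, against 253, 257 and 250.2 FPKM in wild-type libraries, a log2 change of 0.94 (standard error 0.0370, adjusted p = 3.88e-09 in limma). Gapdh2 (X:15762178-15763694) stood at 563, 594 and 563 FPKM in knockout libraries, against 269.5, 267 and 265 FPKM in wild-type libraries, a log2 change of 1.098 (standard error 0.0377, adjusted p = 1.32e-09 in limma). Gapdh1 supplied 45.9%, 45.9% and 46.1% of the summed FPKM of the pair in knockout libraries, against 48.4%, 49.0% and 48.6% in wild-type libraries. The share was lower in the knockout (difference -2.70 percentage points), without overlap between the groups (two-sided exact permutation test, p = 0.1, the smallest that 3 against 3 libraries allow). The paralogs are similar in sequence, and the sources used here do not say how reads that match both were divided, so the split between them is uncertain. Their sum was 1061 ± 32.6 FPKM in knockout libraries and 520.3 ± 4.31 FPKM in wild-type libraries (SD, n = 3 each).

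The remaining payoff enzymes follow from 1,3-bisphosphoglycerate to pyruvate. Pgk, the phosphoglycerate kinase that regains ATP (2L:2746880-2753068), stood at 241, 249.6 and 245 FPKM in knockout libraries, against 127, 128 and 125 FPKM in wild-type libraries, a log2 change of 0.95 (standard error 0.0351, adjusted p = 2.45e-09 in limma). Eno, the enolase that forms phosphoenolpyruvate (2L:1724974-1729629), stood at 799, 869.8 and 793 FPKM in knockout libraries, against 414, 423 and 409.6 FPKM in wild-type libraries. It was the most abundant member in every library, with a log2 change of 0.98 (standard error 0.045, adjusted p = 1.46e-08 in limma). PyK, the pyruvate kinase that makes pyruvate and ATP (3R:18193234-18198464), stood at 287, 304 and 287 FPKM in knockout libraries, against 194, 195 and 187 FPKM in wild-type libraries. Its log2 change of 0.60 (standard error 0.0384, adjusted p = 2.2e-07 in limma) was the smallest of the 10, and its groups did not overlap either.

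The values of these genes rest on 2307 to 34662 fragments per gene and library, as recovered from the deposited confidence intervals, for a counting error of at most 2.08%. The loci of 7 members overlapped no other listed gene. Gapdh1 overlapped mus205 at one end, with means of 8.24 FPKM in the knockout and 7.23 FPKM in wild type. Eno overlapped Rrp40, with means of 19.0 and 21.9 FPKM in knockout and wild type. Pgk overlapped Cwc25 and the abundant CG9894, whose mean was 670.3 FPKM in the knockout and 559 FPKM in wild type (log2 0.27, limma adjusted p = 0.00642). The sources used here do not say whether counting used strand, so reads of Pgk and CG9894 in their common stretch cannot be told apart. In the authors' deposited table, which rests on normalised counts, 10 of 10 members were listed as higher in the knockout at an adjusted p under 0.05. So were 17.7% of the 11643 genes with an adjusted p there. That share includes genes of low level, which the filter before limma left out, so it cannot be set beside the 30.1% above. Its log2 changes ran from 0.58 for PyK to 1.71 for Pgi and differed from the limma values by at most 0.0708 over the 10 members.

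**Figure D2:**
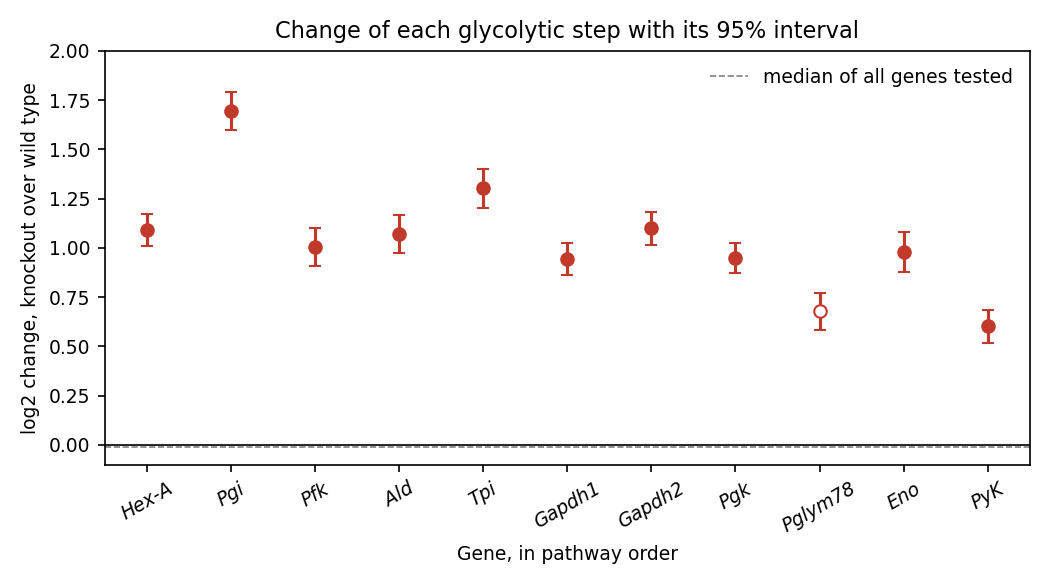
log2 change of knockout over wild type (y axis) for each enzyme in pathway order (x axis), with limma's 95% interval as bars and the median of all genes tested as a dashed line; the open point is the mutase gene Pglym78, which is not among the 10. Pgi at 1.69 and Tpi at 1.30 lie above the rest, and PyK at 0.60 and Pglym78 at 0.68 below.

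The size of the change differed along the pathway. The 95% interval of the log2 change was 1.60 to 1.79 for Pgi and 1.20 to 1.40 for Tpi, and neither overlapped the interval of any other member. The interval of PyK, 0.52 to 0.69, lay below those of the other 9. From Gapdh2 at 1.098 through Hex-A, Ald, Pfk, Eno and Pgk to Gapdh1 at 0.94, the interval of each gene overlapped that of the next. The log2 changes of the 5 investment enzymes ran from 1.003 to 1.69 with a median of 1.09, and those of the 5 payoff genes from 0.60 to 1.098 with a median of 0.95. Summed over the 5 genes of each phase, investment enzymes stood at 1137 ± 40.0 FPKM in knockout libraries and 494 ± 3.13 FPKM in wild-type libraries (SD, n = 3 each). Payoff enzymes stood at 2419 ± 88.4 FPKM in knockout libraries and 1255 ± 16.4 FPKM in wild-type libraries (SD, n = 3 each). The ratio of payoff to investment FPKM was 2.13, 2.13 and 2.12 in knockout libraries, against 2.55, 2.55 and 2.51 in wild-type libraries. The ratio was lower in all 3 knockout libraries than in any wild-type library, and it is given without a p because the members were named with results known.

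The balance among the enzymes was also compared within each library, as the log2 ratio of 1 enzyme to the geometric mean of the other 9. For Pgi this ratio was -1.05, -1.06 and -1.11 in knockout libraries, against -1.80, -1.81 and -1.72 in wild-type libraries. For Tpi it was -0.18, -0.10 and -0.12 in knockout libraries, against -0.42, -0.33 and -0.41 in wild-type libraries. Both enzymes thus stood higher relative to the others in the knockout, without overlap between the groups. For PyK the ratio was -0.05, -0.04 and -0.05 in knockout libraries, against 0.49, 0.49 and 0.45 in wild-type libraries, so that PyK stood lower relative to the others in the knockout. The ratios of Hex-A, Pfk and Ald overlapped between the groups, with mean differences of 0.02, -0.07 and -0.01. The other 4 members did not overlap between the groups, with smaller differences than those of Pgi, Tpi and PyK: -0.15 for Gapdh1, -0.14 for Pgk, -0.11 for Eno and 0.02 for Gapdh2.

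**Figure D3:**
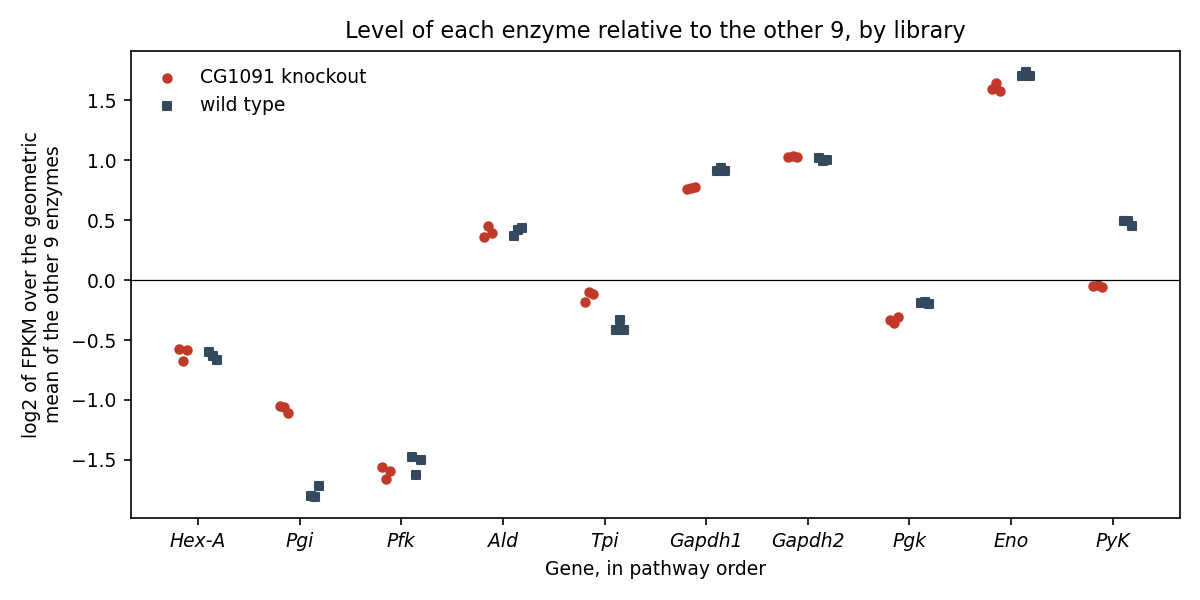
log2 of each enzyme's FPKM over the geometric mean of the other 9 (y axis) in pathway order (x axis), with 1 point per library for 3 knockout (circles) and 3 wild-type libraries (squares). Pgi and Tpi sit higher in the knockout, PyK sits lower, Hex-A, Pfk and Ald overlap between the groups, and Gapdh1, Gapdh2, Pgk and Eno are apart by less than Tpi.

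The order of levels was largely shared by the groups. From the highest mean downwards it was Eno, Gapdh2, Gapdh1, Ald, PyK, Tpi, Pgk, Hex-A, Pgi and Pfk in the knockout. In wild type it was Eno, Gapdh2, Gapdh1, PyK, Ald, Pgk, Tpi, Hex-A, Pfk and Pgi. PyK and Tpi overlapped in the knockout libraries, while no other neighbours overlapped within either group. The enzymes were nearer to each other in the knockout, where the highest level was 7.15, 7.87 and 7.22 times the lowest, against 8.91, 9.11 and 8.46 times in wild type. Among the 7259 genes tested, the mean levels of the members ranked from 118 to 743 in the knockout and from 185 to 1875 in wild type. Of the 907 other tested genes whose mean level lay in the range of the members, 82.8 to 618 FPKM, 31.1% were called higher, and their median log2 change was -0.05.

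**Figure D4:**
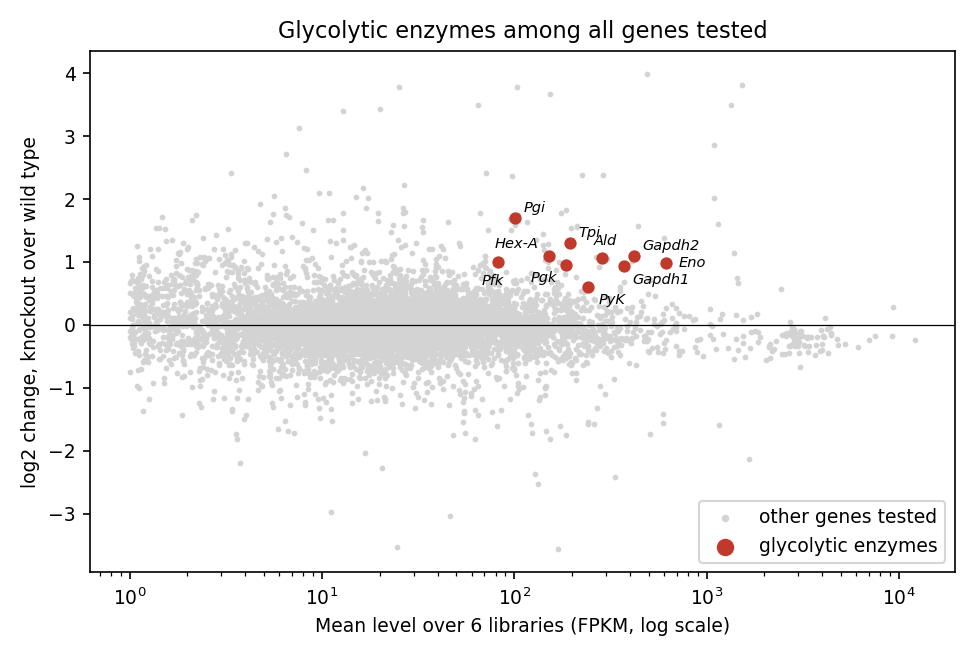
log2 change of knockout over wild type (y axis) against the mean level over 6 libraries (x axis, FPKM on a log scale) for 7259 genes, with the 10 glycolytic enzymes in red. The 10 lie between log2 changes of 0.60 and 1.69, at levels where the median of the other genes is -0.05.

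The mutase step between Pgk and Eno is not among the members. Pglym78, a phosphoglycerate mutase gene, stood at 147, 158 and 149 FPKM in knockout libraries, against 94.7, 96.3 and 91.2 FPKM in wild-type libraries. It was higher in the knockout without overlap, with a log2 change of 0.68 (standard error 0.0416, adjusted p = 1.64e-07 in limma), and its interval of 0.59 to 0.77 overlapped that of PyK. Its locus overlaps ligatin. The hexokinase of these cells was almost all Hex-A: Hex-A made up 99.95%, 99.99% and 99.93% of the summed FPKM of Hex-A, Hex-C, Hex-t1 and Hex-t2 in knockout libraries, against 99.76%, 99.85% and 99.94% in wild-type libraries. That share overlapped between the groups (two-sided exact permutation test, p = 0.2). Hex-t2 and Pglym87 were listed at 0 in all 6 libraries. In the list of the mutase and of related genes, 4 of 14 passed the filter on low values, 2 of them higher, 1 lower and 1 not called, beside 30.1% higher and 32.1% lower over all genes tested. CG7069 averaged 3.49 ± 0.307 FPKM in knockout and 1.33 ± 0.362 FPKM in wild-type libraries (SD, n = 3 each; log2 0.95, limma adjusted p = 6.18e-05). CG7059 averaged 0.417 ± 0.0567 FPKM in knockout and 1.83 ± 0.294 FPKM in wild-type libraries (SD, n = 3 each), and it passed the filter through its wild-type level alone. Pfrx, which encodes the enzyme that sets fructose 2,6-bisphosphate, an activator of phosphofructokinase, averaged 6.63 ± 0.284 FPKM in knockout and 6.06 ± 0.649 FPKM in wild-type libraries (SD, n = 3 each; limma adjusted p = 0.245).

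Of 13 listed genes for sugar uptake, trehalose and glycogen, 8 passed the filter and 8 of these were called higher in the knockout, beside 30.1% of all genes tested, with a median log2 change of 0.85. They act in both directions: besides uptake and the release of glucose, CG6904, CG33138 and UGP serve glycogen synthesis. Treh, the trehalase that frees glucose from trehalose, stood at 51.2, 51.8 and 51.7 FPKM in knockout libraries, against 15.2, 15.6 and 16.1 FPKM in wild-type libraries (log2 1.66, limma adjusted p = 2.18e-10). GlyP, glycogen phosphorylase, stood at 176, 180.4 and 175 FPKM in knockout libraries, against 55.4, 56.9 and 56.5 FPKM in wild-type libraries (log2 1.64, limma adjusted p = 4.05e-11). Pgm, which makes glucose 6-phosphate from glucose 1-phosphate, averaged 153 ± 2.04 FPKM in knockout and 50.1 ± 1.64 FPKM in wild-type libraries (SD, n = 3 each; log2 1.59, limma adjusted p = 1.02e-10). All 3 can lead towards glucose 6-phosphate, the substrate of Pgi, and the 95% interval of each log2 change overlapped that of Pgi. This overlap is not particular to these genes. The intervals of ImpL3 (1.47 to 1.68) and Pdk (1.46 to 1.68), which act on the fates of pyruvate, overlapped that of Pgi too. CG33138, the glycogen branching enzyme gene AGBE in the RefSeq gene table, had a log2 change of 1.07 (limma adjusted p = 8.41e-09). In the pentose phosphate pathway, which branches off at glucose 6-phosphate, 5 of 7 genes were called higher, 0 lower and 2 neither, beside 30.1% higher and 32.1% lower over all genes tested, with a median log2 change of 0.42. Tal, the transaldolase gene Taldo in the RefSeq gene table, averaged 213 ± 9.45 FPKM in knockout and 86.6 ± 2.52 FPKM in wild-type libraries (SD, n = 3 each; log2 1.29, limma adjusted p = 1.04e-09). Zw, the glucose-6-phosphate dehydrogenase that opens the pathway, had a log2 change of 0.42 (limma adjusted p = 0.000747). CG30410, the ribose-5-phosphate isomerase gene Rpi in the RefSeq gene table, and CG8036 had log2 changes of 0.57 and 0.52.

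Of 16 tested genes for the fates of pyruvate and cytosolic NADH, 6 were called higher, 5 lower and 5 neither, with a median log2 change of -0.02. These shares are near the 30.1% higher and 32.1% lower over all genes tested, so the counts show nothing about the list, and single genes are given for their own values. ImpL3, the lactate dehydrogenase that returns NADH to NAD+, stood at 621, 701 and 647 FPKM in knockout libraries, against 214, 221 and 222 FPKM in wild-type libraries (log2 1.58, limma adjusted p = 4.01e-10). Pdk, the kinase that inactivates pyruvate dehydrogenase, stood at 39.7, 42.1 and 40.3 FPKM in knockout libraries, against 13.4, 13.1 and 12.7 FPKM in wild-type libraries (log2 1.57, limma adjusted p = 6.1e-10). Got1, a cytosolic aspartate aminotransferase gene, had a log2 change of 1.27 (limma adjusted p = 2.78e-09). Pepck, whose enzyme runs from oxaloacetate to phosphoenolpyruvate in gluconeogenesis, had a log2 change of -1.58 (limma adjusted p = 4.21e-11). In the citric acid cycle 1 of 18 genes was called higher, 6 lower and 11 neither, with a median log2 change of -0.05, and the share called lower is near the 32.1% over all genes tested, while 30.1% of those were higher. SdhC, a succinate dehydrogenase subunit gene, averaged 81.1 ± 5.85 FPKM in knockout and 110.0 ± 5.15 FPKM in wild-type libraries (SD, n = 3 each; log2 -0.44, limma adjusted p = 5.71e-05). The gene that rose was Nc73EF, the 2-oxoglutarate dehydrogenase (log2 0.34, limma adjusted p = 3.33e-05), whose quantification had failed status in wild-type replicates 2 and 3. Scsalpha and kdn, for succinyl-CoA ligase and citrate synthase, had log2 changes of -0.27 and -0.18 (limma adjusted p = 0.00019 and 0.00359).

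**Figure D5:**
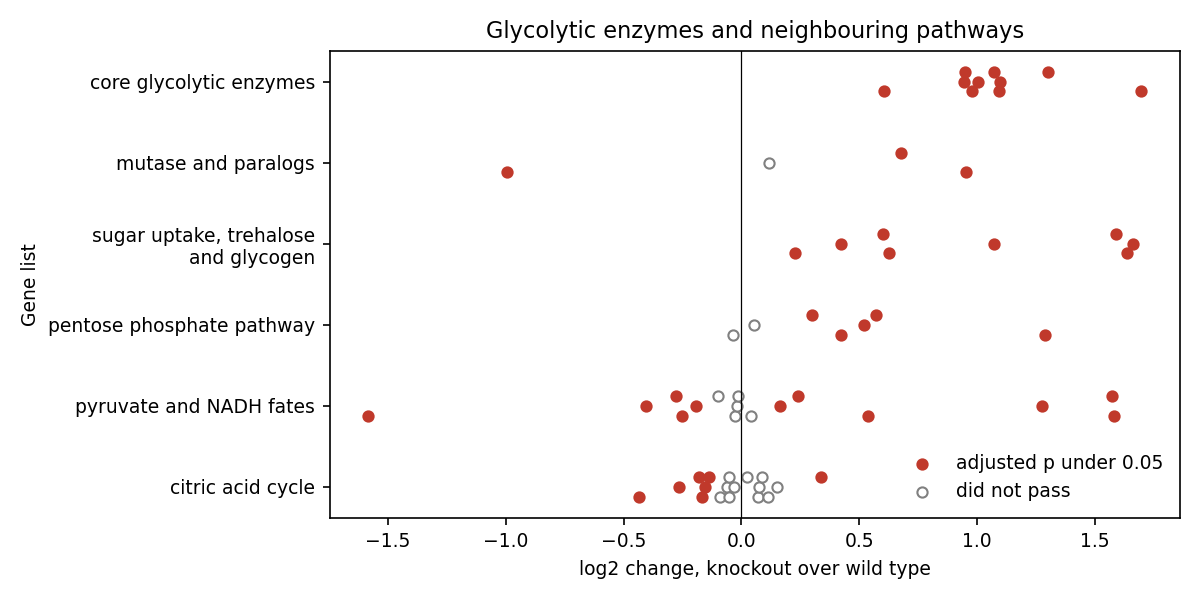
log2 change of knockout over wild type (x axis) for each tested gene of the 10 glycolytic enzymes and of 5 neighbouring lists (rows), with 1 point per gene; filled points passed an adjusted p of 0.05 and open points did not. All 10 enzymes and all 8 genes for sugar uptake, trehalose and glycogen lie to the right of 0, while citric acid cycle genes lie between -0.44 and 0.34.

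Of 14 tested genes in a list of regulators known to act on glycolytic genes or on sugar sensing, 7 were called higher, 4 lower and 3 neither, beside 30.1% higher and 32.1% lower over all genes tested, with a median log2 change of 0.10. Hph, the prolyl hydroxylase that marks Sima for decay and is itself induced in hypoxia, averaged 187 ± 3.68 FPKM in knockout and 73.1 ± 1.74 FPKM in wild-type libraries (SD, n = 3 each; log2 1.34, limma adjusted p = 2.51e-10). The hypoxia factor gene sima averaged 55.6 ± 0.754 FPKM in knockout and 34.1 ± 1.02 FPKM in wild-type libraries (SD, n = 3 each; log2 0.69, limma adjusted p = 1.85e-07). The gene sug, which encodes the sugar-responsive transcription factor Sugarbabe, stood at 10.1, 13.6 and 9.58 FPKM in knockout libraries, against 3.48, 3.69 and 4.32 FPKM in wild-type libraries (log2 1.31, limma adjusted p = 3.49e-06). Max, the dimer partner of Myc, averaged 28.6 ± 1.38 FPKM in knockout and 52.4 ± 1.81 FPKM in wild-type libraries (SD, n = 3 each; log2 -0.85, limma adjusted p = 1.15e-07). The Myc gene dm, named after its value was seen, went the other way. It averaged 94.6 FPKM in knockout and 70.3 FPKM in wild-type libraries (log2 0.42, limma adjusted p = 5.86e-05). The ERR gene had a log2 change of 0.20 (limma adjusted p = 0.0132) and is named after its value was seen. In the authors' deposited table ERR did not pass (adjusted p = 0.0546), and 5 of these regulators were listed there as higher. The loci of Hph, sima, Max, ERR, Zw, CG30410, Scsalpha, CG7059, Pfrx, UGP, Hex-C and bib overlap other listed genes, with the same limit on strand as for Pgk.

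The genes outside the 10 whose profile lay nearest to the mean profile of the members, by the root mean square distance of log2 levels over the 6 libraries after subtracting the wild-type mean, were CG33138, Atg13, CG13283, CG1600 and bib. Their distances were 0.0291, 0.0364, 0.0398, 0.0400 and 0.0404, and those of the members themselves ran from 0.0186 for Gapdh2 to 0.441 for Pgi. With 2 groups of 3, this measure reflects mainly the difference between the groups. It is taken on log2(FPKM + 1), which shrinks changes of low genes: CG13283 and bib had linear folds of 2.74 and 3.03, against 2.14, 2.098 and 2.13 for CG33138, Atg13 and CG1600, and their rank depends on the pseudocount. Atg13, an autophagy gene, had a log2 change of 1.04.

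Fragments recovered per library numbered 18411809 to 22536308 in the knockout and 20896005 to 22957816 in wild type. Of 12 hemocyte markers, 10 reached a mean of 1 FPKM, Hml and nimC1 did not, and the summed level of the 12 ran from 1205 to 1289 FPKM in knockout and from 1046 to 1324 FPKM in wild-type libraries. That sum rests mainly on a few abundant genes (Cg25C, vkg, crq and Pvr), and single markers differed between the groups. Of the 10, 6 were called higher and 2 lower, beside 30.1% and 32.1% of all genes tested. He, called higher, passed the filter through its knockout level alone, with means of 1.55 FPKM in knockout and 0.584 FPKM in wild-type libraries. Ppn and ush had log2 changes of 0.80 and 0.48, and Pxn had -0.74 (limma adjusted p = 3.06e-07, 1.05e-05 and 6.27e-05). The values of Ppn, called higher, and of Pvr, called lower, lacked status OK in some libraries. Hml, a defining marker of differentiated hemocytes, stood at 1.55, 1.35 and 1.65 FPKM in knockout libraries, against 0.417, 0.398 and 0.379 FPKM in wild-type libraries, without overlap. Of 12 markers of other cell types, 1 (elav) reached 1 FPKM, with summed levels of 11.4 to 11.98 FPKM in knockout and 9.09 to 9.87 FPKM in wild-type libraries, and Lsp2 and Tsp42Er were listed at 0. The part of these markers in the glycolytic result was not tested. Among them, Hml, Pxn, crq and elav lie at loci that overlap other listed genes, with the same limit on strand as for Pgk. With a single knockout line, the edited gene and the history of the edited cells cannot be told apart.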

How the data were processed

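The 3 knockout and 3 wild-type libraries were grouped by their titles. RNA had been extracted with Trizol, selected for poly(A) and made into directional NEBNext libraries, per the labels' protocols. The authors deposited FPKM per gene, a status and an interval around each value, in Cufflinks format per the file headers. Their comparison table, as deposited by the authors, gives for each gene the ratio of normalised counts between the groups, the log2 of that ratio, the mean signal of each group and p-values. Its log2 values are wild type over knockout and were turned to knockout over wild type. The submitters' processing notes name DESeq 1.10.1, HTSeq 0.6.1p1, Cufflinks 1.3.0, TopHat 1.4.1 and BWA 0.6.1. The sources used here name no genome build, and coordinates follow the files, counted from 1.

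Without counts, the genes that averaged 1 FPKM or more (7259 of 14210) were tested on log2(FPKM + 1), which understates changes of low genes. The fit was limma 3.58.1 in R 4.3.3 with trend and robust settings and Benjamini-Hochberg adjustment over all genes tested. Fragment numbers were recovered by taking the distance from the FPKM to its upper bound as 2 Poisson standard errors. On simulated data for 7259 genes with 200 changed, the fit called 27 of 50 genes changed by a factor of 1.25, 47 of 50 at 1.5, 49 of 50 at 2, 50 of 50 at 4 and 4 of 7059 unchanged genes. In the data themselves far more genes were called, 2182 higher and 2327 lower, so the simulated rates need not hold there. Shares were compared with exact permutation tests (scipy 1.17.1). The ratio of payoff to investment FPKM was planned with that test but is given without a p.

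The members, gene lists and tests were chosen with earlier results of these data known. Named besides the members were genes of the mutase list that passed the filter, up to 4 called genes of largest change in each other list, and the 5 nearest profiles. List genes were matched by name or by gene ID. Alternatives were other pseudocounts and filters, 3 scalings, a plain eBayes fit, a replicate block, leaving out each library, status OK only, voom on recovered fragments, the authors' table and a 2-fold threshold. Figures were drawn with matplotlib 3.10.9. No sequences were used here.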

Additional observations from a re-analysis of the deposited data

How the results depend on the processing

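The 10 glycolytic members were called higher, and 0 lower, under every alternative except the 2-fold threshold, where 6 were. That count depends on the scaling, since several members lie near a log2 change of 1. Pfk, among the 6, had 0.99 with median scaling and 0.99 in the authors' table. With cyclic loess scaling, Eno at 1.09 and Gapdh1 at 1.02 lay above 1. No member changed direction in any of the alternatives run, and over the settings fitted here the log2 change stayed between 1.62 and 1.73 for Pgi and between 0.58 and 0.65 for PyK. With the 2-fold threshold, 178 genes of all tested were higher and 113 lower. In the lists it left 0 higher and 0 lower for the mutase and related genes, 4 higher for sugar uptake, trehalose and glycogen, and 3 higher and 1 lower for the fates of pyruvate and NADH. It left 1 higher for the pentose phosphate pathway, 0 higher and 0 lower for the citric acid cycle, and 2 higher and 0 lower for the regulators. With the filter raised to 5 FPKM, 1 mutase or related gene was higher and 0 lower, since fewer genes were tested. Citric acid cycle genes called higher numbered 2 with cyclic loess scaling, 0 with voom on recovered fragments and 0 with status OK only, which leaves out Nc73EF, and ranged from 1 to 2 when single libraries were left out. The count of 2 came without wild-type replicate 1. The 6 citric acid cycle genes called lower became 4 with no filter, a plain eBayes fit, voom or the authors' table. They became 5 with quantile normalization, and ranged from 4 to 6 when single libraries were left out. The voom value of Nc73EF rests on failed intervals and cannot be interpreted. Pfrx passed with voom alone among its alternatives (log2 0.19, adjusted p = 0.0266). No pairing by replicate number was visible: deviations of same-numbered libraries correlated at -0.05, 0.00 and -0.03, and those of other pairs at -0.055 to 0.077. With 3 libraries per group, this cannot show whether same-numbered libraries were prepared together. A replicate block gave 10 members higher, and 2104 genes higher and 2289 lower over all tested. The differences in the Gapdh1 share, the Hex-A share and the payoff ratio kept their sign under every alternative run for them. Counting error was small for the members and limits the genes under 1 FPKM.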
